A study of Mus musculus with 5 samples.

Results

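The insulin-like growth factor (IGF) axis of cultured mouse pancreatic cells was described through 10 genes, all 10 measured, among the 19938 genes that an Affymetrix whole-transcript array table allowed to be named. They were the ligand genes Igf1 and Igf2, the receptor genes Igf1r and Igf2r, and the binding protein genes Igfbp2, Igfbp3, Igfbp4, Igfbp5, Igfbp6 and Igfbp7. Each gene was read by its 1 probe set with a single gene symbol. The list was chosen by the high log2 signal of Igfbp4 in the tumour cultures relative to the duct cultures, so the differences of its members between the groups are given as a description and no test of them is read.

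In the IGF axis, the secreted ligands IGF1 and IGF2 signal mainly through the receptor tyrosine kinase IGF1R, which passes the signal through insulin receptor substrates to PI3K and Akt and through Shc and Grb2 to Ras. The IGF2 receptor has no kinase and carries IGF2 to lysosomes, where it is degraded. The classical binding proteins hold the ligands in the fluid around cells with high affinity, which can keep them from the receptor or store them, and proteases release the ligands again. In pancreatic tumours the axis is known for growth and survival signals that pass between tumour cells and stromal cells.

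All samples were cultures grown in medium with serum for a small number of passages, per a growth protocol that speaks of primary PDAC cells for every sample. The series design speaks of cell lines, and the word primary is in the cell type label of the PDAC group alone. The normal ductal group (n = 2) was labelled as normal pancreatic ductal cells with the genotype Pdx-1Cre p53L/L, in which Cre made in the Pdx-1 lineage meets floxed p53 alleles. The PDAC group (n = 3) was labelled as primary pancreatic ductal adenocarcinoma cells with the genotype Pdx-1CreAPCL/+p53L/L, so it carried a floxed p53 pair as well and, in addition, 1 floxed Apc allele. The title of normal ductal replicate 2 lacks the words Cre and ductal, the title of PDAC replicate 3 adds that it is a mutant cell, and no label gives the age of the mice. The labels speak of biological replicates without naming separate animals, so the errors and p-values measure only the spread between these 5 arrays, whose number limits the precision.

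The labelled cell types were set beside marker lists, which were chosen with earlier results of these data known. The mean log2 signal of 12 duct epithelium markers was 10.79 for normal ductal replicate 1 and 10.48 for replicate 2, against 6.66, 7.60 and 9.24 for the PDAC cultures in replicate order. The mean of 14 fibroblast and stellate markers was 8.07 for normal ductal replicate 1 and 10.43 for replicate 2, with the PDAC arrays between 9.48 and 9.81. The fibroblast mean of normal ductal replicate 2 was thus above that of every PDAC array, but the single markers were split. Dcn, Fap and Des were higher there than on all PDAC arrays, Col1a1, Pdgfra and Vim were lower than on all of them, and the rest lay between. Normal ductal replicate 2 also had the highest acinar mean, at 7.26 against 5.18 to 5.31 on the other 4 arrays. The mean of 8 mesothelium markers was 8.40 in PDAC replicate 3 and 5.38 to 6.79 on the other arrays. Highest in PDAC replicate 3 were Upk3b (10.41, and 5.55 to 5.72 elsewhere), Upk1b (10.77, and 4.63 to 7.58 elsewhere), Gpm6a (9.32, and 3.87 to 4.17 elsewhere) and Bnc1 (6.39, and 5.27 to 5.50 elsewhere). The other 4 mesothelium markers were not: Msln, at 11.18 there, was at 11.25 in normal ductal replicate 1, Wt1 and Lrrn4 were highest in normal ductal replicate 2, and Rspo1 lay between 5.64 and 5.68 on every array. The floxed gene Apc stood at 9.23 and 9.02 in the normal ductal cultures, against 9.0, 9.06 and 8.58 in the PDAC cultures. Its probe set is not known to lie in the floxed part, so this level does not check the genotype, and p53 itself was not analysed here.

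The promoters of 3 members are shown because Igfbp4 and Igfbp6 had the largest differences of the members between the groups and Igf1r is the receptor through which the ligands signal. Each sequence is the 250 bases before a RefSeq transcription start (GRCm38.p6), printed 5′ to 3′ on the gene's strand. Capitals mark matches on either strand to any of 4 motifs. The first is the TATA box, searched as the letters TATAAA, and the second is the so-called GC box, searched as the letters GGGCGG. The third is the CCAAT box, searched by those letters, and the fourth is the core bound by TCF/LEF factors, the partners of beta-catenin, searched as the letters CTTTGA. The Igfbp4 window lies at chr11:99040994-99041243 on the plus strand, inside the span RefSeq gives the gene, the Igfbp6 window at chr15:102143936-102144185 on the plus strand, and the Igf1r window at chr7:67952007-67952256 on the plus strand.
Igfbp4: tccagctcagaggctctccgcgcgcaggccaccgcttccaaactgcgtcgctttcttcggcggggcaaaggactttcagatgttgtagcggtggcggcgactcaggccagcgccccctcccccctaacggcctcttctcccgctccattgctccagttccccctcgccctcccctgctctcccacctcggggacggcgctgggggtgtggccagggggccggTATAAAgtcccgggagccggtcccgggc
Igfbp6: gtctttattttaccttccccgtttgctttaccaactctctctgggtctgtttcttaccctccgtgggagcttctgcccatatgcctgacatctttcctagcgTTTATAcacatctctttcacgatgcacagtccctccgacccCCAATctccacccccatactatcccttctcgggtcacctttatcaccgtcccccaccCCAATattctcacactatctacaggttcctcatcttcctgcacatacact
Igf1r: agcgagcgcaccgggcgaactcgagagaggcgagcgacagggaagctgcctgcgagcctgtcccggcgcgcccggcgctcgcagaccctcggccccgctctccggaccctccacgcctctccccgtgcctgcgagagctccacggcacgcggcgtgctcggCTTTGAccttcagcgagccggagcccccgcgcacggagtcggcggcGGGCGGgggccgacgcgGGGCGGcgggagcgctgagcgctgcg

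The Igfbp4 window held a TATA match whose first base lies 28 bases before the start, and no match to the other 3 motifs. The Igfbp6 window held a reversed TATA match at 148 bases and CCAAT matches at 107 and 50 bases. The Igf1r window held GC boxes at 43 and 26 bases and a TCF/LEF core at 89 bases. GC content was 69.2% for Igfbp4, 49.6% for Igfbp6 and 77.6% for Igf1r, against a median of 52.4% over all 32851 windows of this length, and CpG pairs numbered 22, 7 and 42 against a median of 6. Over all windows, 12.4% held a TATA match, 32.7% a GC box, 33.8% a CCAAT match and 13.8% a TCF/LEF core. Among the 14 windows of the 10 members, 2 held a TATA match, 6 a GC box, 3 a CCAAT match and 3 a TCF/LEF core, the last in Igf1, Igf1r and 1 of the 4 starts of Igf2. The promoters of Igfbp4 and Igfbp6 shared the TATA letters at different distances and no other motif searched. These matches describe letters in a window and are not measured binding.

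The comparison of PDAC with normal ductal cultures asked how the parts of the axis differ between tumour cells that carry the floxed Apc allele and duct cells without it. Igfbp4 and Igfbp6 were each more than 2 log2 units higher in every PDAC culture than in either normal ductal culture, and Igfbp2 was higher by a narrower margin. Igf1r and Igf2 were lower in every PDAC culture. Igf1, Igf2r, Igfbp3, Igfbp5 and Igfbp7 overlapped between the groups. Without overlap, 3 members were higher and 2 lower, and over all genes tested the shares were 13.6% higher and 12.8% lower. Since the list was drawn up on this contrast, nothing is read from the counts. In these bulk cultures, fewer cells of a type and less RNA per cell cannot be told apart.

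**Figure D1:**
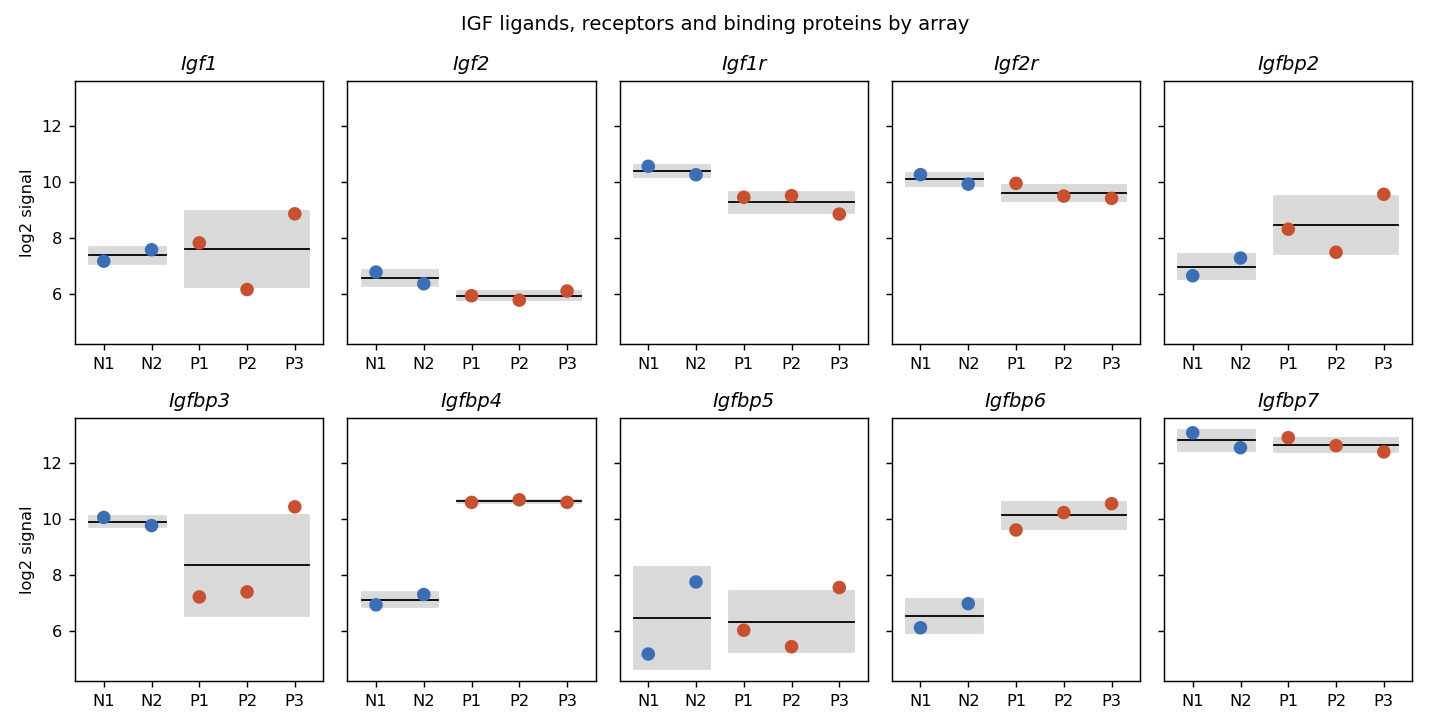
Log2 signal (vertical axis) of each of the 10 genes on the 5 arrays: N1 and N2 are normal ductal replicates 1 and 2, and P1 to P3 are PDAC replicates 1 to 3. Lines are group means and grey bands 1 SD (n = 2 and n = 3); the groups lie far apart for Igfbp4 and Igfbp6, while P3 stands above P1 and P2 for Igf1, Igfbp2, Igfbp3 and Igfbp5.

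Among the ligands, Igf1, the growth factor whose circulating form comes mainly from the liver, had signals of 7.17 and 7.59 in the normal ductal cultures, against 7.83, 6.16 and 8.87 in the PDAC cultures (here and below in the order of their replicate numbers). PDAC replicate 2 was the lowest of the 5 arrays and replicate 3 the highest, so the normal ductal values lay between the PDAC values. The difference between group means, 0.24 (SE 0.90), was smaller than the PDAC SD of 1.37. Without PDAC replicate 3 it was -0.39.

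Igf2, an imprinted gene of fetal growth that is often expressed again in tumours, had signals of 6.78 and 6.37 in the normal ductal cultures, against 5.94, 5.78 and 6.11 in the PDAC cultures. All PDAC arrays lay below both normal ductal arrays, with a gap of 0.26 between the nearest of them. The difference was -0.63 (SE 0.18), a signal 1.55-fold higher in normal ductal cultures. It kept its sign without any 1 array (-0.84 to -0.42). The Igf2 signals lay around the array medians of 5.90 to 6.02 over all probe sets, and 45.3% of genes had a lower mean. Whether these signals stood above background was not tested.

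Among the receptors, Igf1r, the kinase that both ligands activate, had signals of 10.57 and 10.27 in the normal ductal cultures, against 9.46, 9.52 and 8.86 in the PDAC cultures. The groups did not overlap, and PDAC replicate 3 was the lowest. The mean was 10.42 ± 0.21 (SD, n = 2) over the normal ductal cultures and 9.28 ± 0.36 (SD, n = 3) over the PDAC cultures, a difference of -1.14 (SE 0.27), or 2.20-fold. RefSeq places Igf1r on chromosome 7 from 67952257 to 68233668 in the GRCm38 assembly.

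Igf2r, the clearance receptor that also sorts lysosomal enzymes tagged with mannose 6-phosphate, had signals of 10.27 and 9.93 in the normal ductal cultures, against 9.96, 9.50 and 9.42 in the PDAC cultures. PDAC replicate 1 lay just above normal ductal replicate 2, by 0.03, and the difference of -0.47 (SE 0.23) was of the order of the spread within the groups (SD 0.24 and 0.29). Airn, the non-coding RNA that silences the paternal Igf2r allele in mice, stood at 9.07 and 9.29 in the normal ductal cultures, against 7.93, 8.90 and 9.81 in the PDAC cultures (named after its values were seen).

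Igfbp4 encodes a binding protein that mostly restrains IGF signalling and is cut by the protease PAPP-A. Its signals were 6.93 and 7.30 in the normal ductal cultures, against 10.59, 10.68 and 10.59 in the PDAC cultures. The nearest arrays of the groups were 3.30 apart, while the PDAC arrays spanned only 0.09 and the normal ductal arrays 0.37. The difference was 3.51 (SE 0.14), or 11.4-fold, the 7th highest of all genes. It lay between 3.33 and 3.70 when any 1 array was left out. RefSeq places the gene on chromosome 11 from 99040005 to 99052655.

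Igfbp6 encodes a binding protein that prefers IGF2 to IGF1. Its signals were 6.11 and 6.97 in the normal ductal cultures, against 9.60, 10.22 and 10.55 in the PDAC cultures. Each PDAC array was at least 2.63 above each normal ductal array, and the spread within the groups was wider than for Igfbp4 (SD 0.61 and 0.48). The mean was 6.54 ± 0.61 (SD, n = 2) over the normal ductal cultures and 10.12 ± 0.48 (SD, n = 3) over the PDAC cultures, a difference of 3.59 (SE 0.43), or 12.0-fold, the 6th highest of all genes. Leaving out 1 array gave 3.15 to 4.02. The gene lies on chromosome 15 from 102144186 to 102149512.

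Over the whole table the limma test with Benjamini-Hochberg adjustment called 11 genes, 0.0552% of those tested, 1 of them higher (0.00502%) and 10 lower in PDAC. The 1 higher gene was Igfbp4, and since its rise on these arrays chose the list, its presence among the calls restates that choice and is no test of it. Scaling moved this split, with 10 higher and 32 lower after quantile normalization and 23 higher and 57 lower with arrays at a common median. So did the normal ductal arrays, with 980 higher and 307 lower when replicate 1 was left out and 125 higher and 865 lower when replicate 2 was. The fits without PDAC replicate 1, 2 or 3 called 0 genes by limma, while 1949, 1995 and 2751 genes had an unadjusted p under 0.05.

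**Figure D2:**
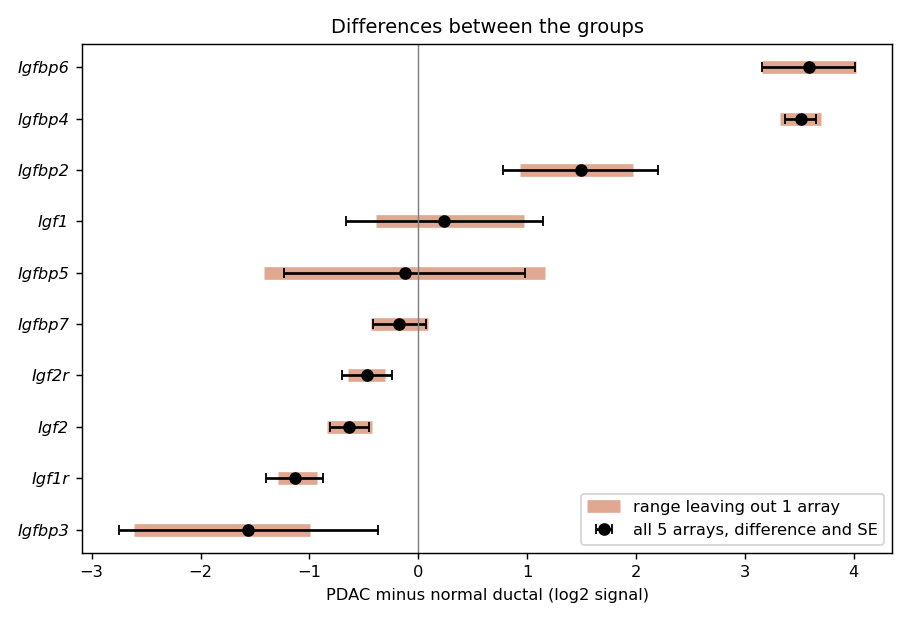
Difference between the PDAC and normal ductal means on the log2 scale (horizontal axis) for each gene, with the standard error as whiskers and, as a coloured bar, the range when any 1 array is left out. Igfbp6 and Igfbp4 lie at 3.59 and 3.51, and the bars of Igf1, Igfbp5 and Igfbp7 cross 0.

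Igfbp2, a binding protein that also contacts integrins through an RGD sequence, had signals of 6.65 and 7.29 in the normal ductal cultures, against 8.32, 7.50 and 9.57 in the PDAC cultures. The groups did not overlap, though PDAC replicate 2 was only 0.21 above normal ductal replicate 2 and replicate 3 was 1.66 above the mean of the other PDAC arrays. The difference was 1.49 (SE 0.71), or 2.81-fold, and 0.94 without PDAC replicate 3.

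Igfbp3, the main carrier of IGFs in blood and a known p53 target, had signals of 10.05 and 9.76 in the normal ductal cultures, against 7.21, 7.39 and 10.43 in the PDAC cultures. PDAC replicates 1 and 2 were far below both normal ductal arrays, and replicate 3 was above them. The PDAC arrays spanned 3.22, a wider range than in 99.4% of all genes. The difference was therefore -1.56 with an SE of 1.19, and -2.61 without PDAC replicate 3.

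Igfbp5, which binds matrix and is typical of mesenchymal cells, had signals of 5.17 and 7.74 in the normal ductal cultures, against 6.02, 5.43 and 7.54 in the PDAC cultures. Normal ductal replicate 2 and PDAC replicate 3 were high and the other 3 arrays low, so the groups overlapped. The difference was -0.13 (SE 1.10), with 1.16 without normal ductal replicate 2 and -1.41 without replicate 1.

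Igfbp7, a secreted protein related to this family that binds IGFs only weakly, had signals of 13.08 and 12.55 in the normal ductal cultures, against 12.91, 12.62 and 12.40 in the PDAC cultures. It was high on every array, and its difference of -0.17 (SE 0.24) was within the spread of the groups (SD 0.38 and 0.26). Without normal ductal replicate 1 the difference was 0.09.

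Over the 10 members the median difference was -0.15, against 0.01 over all 19938 genes. Its sign rested on single arrays, with 0.08 when PDAC replicate 2 was left out, 0.003 without normal ductal replicate 2 and -0.38 without PDAC replicate 3. The binding proteins split evenly, 3 with a higher and 3 with a lower mean in PDAC, and of the 4 ligand and receptor genes all but Igf1 had a lower mean. The sign of the difference was the same under all 9 alternatives run for 7 members, and Igf1, Igfbp5 and Igfbp7 took the other sign under at least 1. Not all of these alternatives were separate checks. Averaging the probe sets could not move a member, as each had 1 probe set. The replicate block gave the same differences as leaving out PDAC replicate 3.

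The members also varied within the PDAC group. Igf1, Igfbp2, Igfbp3 and Igfbp5 were more than 1 higher in PDAC replicate 3 than the mean of replicates 1 and 2, by 1.88, 1.66, 3.13 and 1.82. Igfbp4 differed there by only -0.04, and Igf1r and Igf2r were lower by 0.63 and 0.31. Replicate 3 was also the array with the high mesothelium mean given above, where 4 of the 8 markers were more than 1 above both other PDAC arrays, and 8 of the 12 duct epithelium markers were too. Of the fibroblast markers, 1 of 14 was. The part of these markers' cells in the levels of the 4 genes was not tested.

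Within the normal ductal group, Igfbp5 alone among the members was more than 1 higher in replicate 2 than in replicate 1, by 2.58. Of the fibroblast markers, 11 of 14 were more than 1 higher in replicate 2, as were 5 of 9 acinar, 5 of 10 islet and 6 of 9 endothelium markers. Their part in the Igfbp5 level was not tested. For Igfbp4 and Igfbp6 the same arrays differed by 0.37 and 0.86. The part of the markers in these levels was not tested either.

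**Figure D3:**
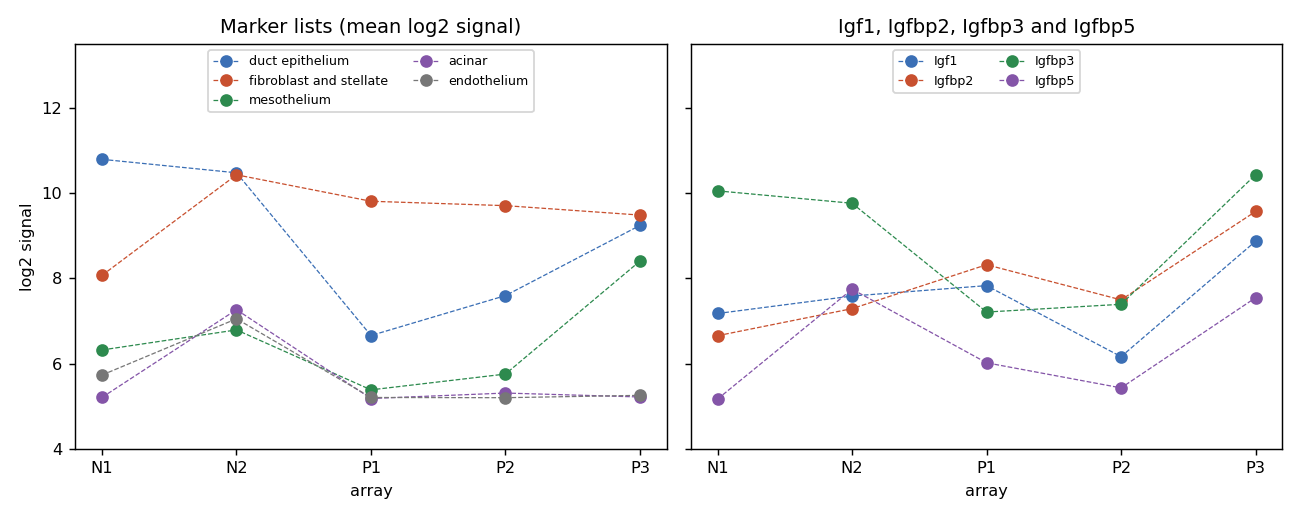
Left, mean log2 signal of 5 marker lists on each array (N1 and N2 normal ductal, P1 to P3 PDAC); right, log2 signal of Igf1, Igfbp2, Igfbp3 and Igfbp5 on the same arrays. The mesothelium mean is highest on P3 (8.40), where the 4 genes stand above their other PDAC values. The duct epithelium mean is also higher on P3 (9.24) than on P1 and P2 (6.66 and 7.60). The fibroblast, acinar and endothelium means are highest on N2. Dashed lines only join the points of a series.

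Position in the genome was compared next. Igfbp2 and Igfbp5 are neighbours on chromosome 1, with 5590 bases and 0 coding genes between them in RefSeq, and Igfbp3 lies 3539 bases from Igfbp1 on chromosome 11. Within the first pair, Igfbp2 parted the groups and Igfbp5 did not. Igfbp1, the other member of the second pair, was at 5.30 and 4.99 on the normal ductal arrays and at 5.19 on all 3 PDAC arrays. This equal, low value leaves no range to set against the wide PDAC range of Igfbp3, so whether the pair varies together is not shown.

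The measured genes nearest Igfbp4 on chromosome 11 were Gjd3 and Top2a on one side and Tns4 and Ccr7 on the other. None of the 4 had a difference near that of Igfbp4. Top2a, the topoisomerase of dividing cells, was at 10.16 and 9.99 in the normal ductal cultures, against 10.50, 10.65 and 10.64 in the PDAC cultures, a difference of 0.52 (SE 0.09) with an adjusted p = 0.200 by limma, above the threshold. Tns4, a tensin of focal adhesions, was at 6.21 and 5.80 in the normal ductal cultures, against 5.0, 6.42 and 9.22 in the PDAC cultures (adjusted p = 0.788 by limma). The gap junction gene Gjd3 differed by 0.07 and the chemokine receptor gene Ccr7 by 0.00. On the PDAC arrays Gjd3 spanned only 0.02, and Ccr7 stood at 5.74 on all 3. Whether these flat probe sets could show a difference was not tested.

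The genes whose profile over the 5 arrays was nearest to that of Igfbp4 were ranked by the root mean square difference of log2 signals, each centred on its own mean. Col6a1, a chain of collagen VI, was the nearest at 0.21, with signals of 6.88 and 7.10 in the normal ductal cultures, against 9.96, 10.27 and 10.43 in the PDAC cultures. Igfbp6 itself followed at 0.34, then the transcription factor gene Snai2 at 0.35, the BMP antagonist gene Grem1 at 0.42 and the pyrophosphate transporter gene Ank at 0.44. For Igfbp6 the nearest were Glp1r, the receptor of glucagon-like peptide 1, at 0.29 and Col6a1 at 0.31. For Igf1r they were Fblim1, which encodes a filamin-binding adhesion protein, at 0.06 and Syne2, a nuclear envelope protein, at 0.08. Igf2 had Ascc1 (0.03) and Uckl1 (0.04) nearest, and Igfbp2 had Cenpm (0.23) and Slfn3 (0.26). Each likeness is over 5 arrays only.

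The rest of the pathway was described through 55 listed genes, of which 49 were measured. After adjustment over the whole table limma called 0 of these 49. Its unadjusted p was under 0.05 for 9, of which 4 were higher and 5 lower. Over all genes, 6.5% were higher and 6.86% lower at that level. Their median difference was 0.03, and 10 (20.4%) were higher and 9 (18.4%) lower without overlap between the groups, beside 13.6% and 12.8% of all genes. All genes include 721 with 1 value on all arrays, which cannot part the groups. With the lowest 25% of genes left out, which kept 44 of the 49, the shares of the remaining genes were 17.4% higher and 15.6% lower. The pathway shares were not recomputed over those 44, so the 20.4% and 18.4% are over another set and are not matched to these. The other 6 listed genes were not analysed here.

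Among 12 extracellular regulators, the unadjusted p was under 0.05 for 1 gene with a higher and 1 with a lower mean. Htra1, a secreted protease that can cut binding proteins, had signals of 9.76 and 9.04 in the normal ductal cultures, against 9.97, 10.50 and 10.32 in the PDAC cultures (difference 0.86, SE 0.30, limma adjusted p = 0.363). Stc2, a stanniocalcin that blocks PAPP-A, had 7.41 and 7.49 in the normal ductal cultures, against 6.60, 6.22 and 6.97 in the PDAC cultures (-0.86, SE 0.25, limma adjusted p = 0.314). Pappa, the PAPP-A gene itself, was at 7.22 and 8.36 in the normal ductal cultures, against 7.95, 6.62 and 7.44 in the PDAC cultures, so the groups overlapped. Pappa was named after its values were seen, as was Stc1, the other stanniocalcin gene, at 6.34 and 5.93 against 8.92, 6.40 and 8.09. The gene of the protease thus overlapped between the groups while that of its substrate, Igfbp4, whose rise chose the list, did not. Nothing is read from this contrast, and whether the differences of Pappa and Igfbp4 differ was not tested.

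Among 14 receptor kinase and adaptor genes, the unadjusted p was under 0.05 for 1 gene with a higher and 3 with a lower mean. Grb10, an adaptor that restrains the insulin and IGF1 receptors, had signals of 10.49 and 10.63 in the normal ductal cultures, against 9.21, 7.55 and 8.53 in the PDAC cultures. All PDAC arrays lay more than 1 below the normal ductal arrays (-2.13, SE 0.55, limma adjusted p = 0.282). Insr, the insulin receptor gene and closest relative of Igf1r, had 8.98 and 8.76 in the normal ductal cultures, against 8.34, 8.47 and 8.40 in the PDAC cultures (-0.47, SE 0.11, limma adjusted p = 0.250). Both kinase genes of this receptor pair were thus lower in every PDAC culture, by 1.38-fold for Insr and 2.20-fold for Igf1r. The adaptor gene Sh2b1 had -0.47 (SE 0.15, limma adjusted p = 0.342), and Socs3, a feedback inhibitor of cytokine and insulin signalling, 1.10 (SE 0.32, limma adjusted p = 0.309). Irs1, the main docking protein of the receptor, varied within PDAC, at 10.12, 7.85 and 9.23 against 7.59 and 8.0 in normal ductal cultures (named after its values were seen).

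Among 17 genes of the PI3K-Akt relay, the unadjusted p was under 0.05 for 2 genes with a higher and 1 with a lower mean. Pik3r3 and Pik3r2, regulatory subunits of PI3K, had differences of 0.74 (SE 0.14, limma adjusted p = 0.206) and 0.97 (SE 0.25, limma adjusted p = 0.278). The signals of Pik3r3 were 7.59 and 7.67 in the normal ductal cultures, against 8.55, 8.36 and 8.19 in the PDAC cultures. Pik3cb, a catalytic subunit, had 10.39 and 10.33 in the normal ductal cultures, against 9.54, 9.89 and 9.56 in the PDAC cultures (-0.70, SE 0.14, limma adjusted p = 0.218). The 6 measured genes of the last list, drawn up around Igf2, were Igf2bp1, Igf2bp3, Lin28b, Hmga2, Ins2 and Airn. Of these, Airn acts on Igf2r rather than Igf2. None of the 6 had an unadjusted p under 0.05 by limma, and their median difference was -0.31.

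**Figure D4:**
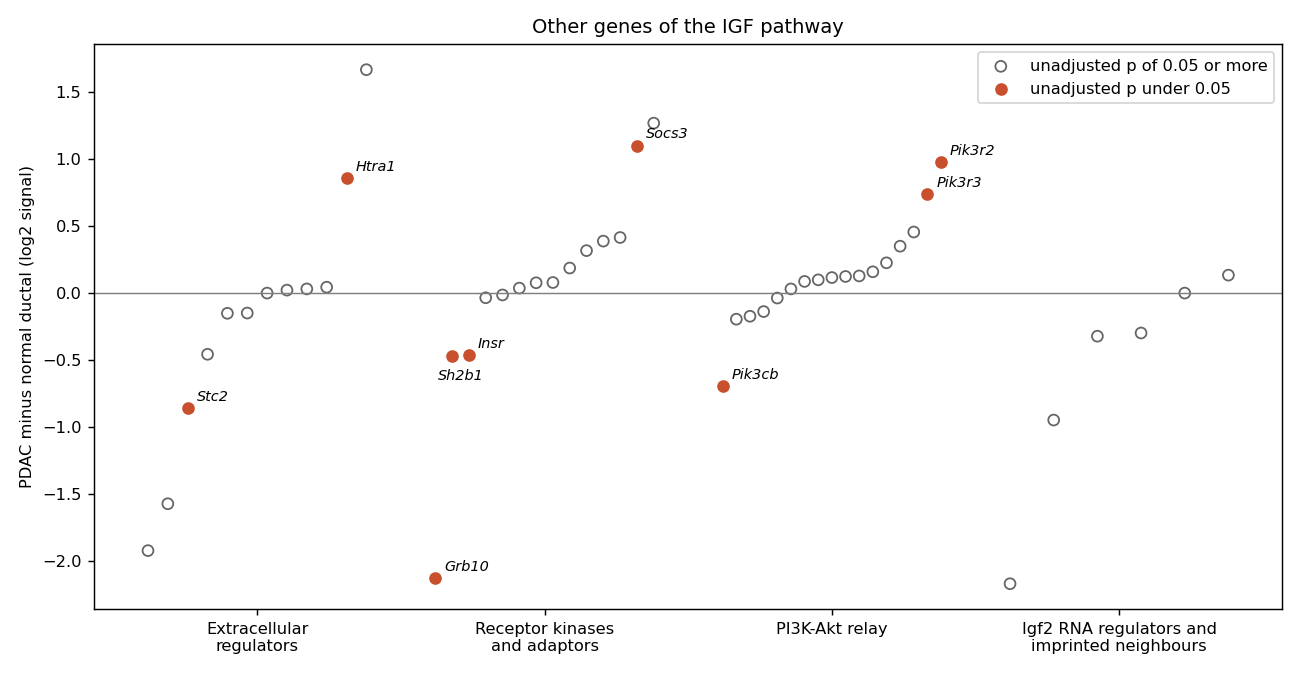
Difference between the PDAC and normal ductal means on the log2 scale (vertical axis) for 49 other genes of the IGF pathway in 4 lists, each ordered by its difference. Filled points are the 9 genes with an unadjusted limma p under 0.05, from Grb10 at -2.13 to Socs3 at 1.10, and open points the rest.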

How the data were processed

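The authors deposited log2 signals of 35556 probe sets on 5 arrays. The submitters' processing notes name Transcriptome Analysis Console, version 1.0.0.234, and the mm10 build. How background and normalization were handled, and the log base, is not given in the sources used here. Base 2 was inferred from a range of 0.727 to 13.911; another base would alter the folds and leave the tests as they are. Gene names came from the annotation of the platform: 21789 had 1 gene symbol, 1621 several and 12146 none, and the last 2 kinds were left out. For 999 genes with several probe sets the one with the highest mean was used. The 10 members and all lists were chosen with earlier results of these data known.

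Genes were tested with limma 3.58.1 in R 4.3.3 (two-sided, intensity trend, 3 residual and 0.905 prior degrees of freedom), adjusted by Benjamini-Hochberg over 19938 genes at a threshold of 0.05. The SE of a difference comes from this fit, and SDs are between arrays. In 20 simulations of this comparison over 19938 genes, the share of altered genes recovered was 43.0% at a log2 size of 1, 77.1% at 2 and 93.3% at 4, and 5.22% of calls were false. The simulated noise was independent between genes and arrays, with no shift shared by many genes of a culture. Marker list means did differ between cultures of the same group, so these shares need not hold for the real arrays. A gene that was not called is thus not shown to be unchanged. Named genes were the members, Apc, up to 3 pathway genes per list and direction with the smallest unadjusted p under 0.05, the 2 genes on each side of Igfbp4, and the 5 nearest profiles for Igfbp4 and 2 for each other member whose groups did not overlap. Alternatives left out each array in turn, dropped the intensity trend, made the variance model robust, averaged the probe sets of a gene, removed the lowest 25% of genes, used the replicate number as a block, or scaled the arrays by quantiles or to a common median. Promoters came from RefSeq (GRCm38.p6), where all 10 members matched. Python 3.11.15 with numpy 2.4.6, pandas 2.3.3 and matplotlib 3.10.9 was used.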

Additional observations from a re-analysis of the deposited data

How the results depend on the processing

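The count of 11 genes that limma called rose to 42 under quantile normalization and to 80 once all arrays shared a median, and it ran from 0 to 1287 when 1 array was left out. With 1 normal ductal array the lone array is assumed to vary like the PDAC arrays. These scalings moved the median difference of all genes from 0.01 to 0.04 and 0.10. With the replicate number as a block limma called 0 genes (2214 at an unadjusted p under 0.05). The labels share replicate numbers 1 and 2 only, and the differences between these replicates correlated at -0.143 across genes between the groups, so the numbers were not taken to pair the cultures. The median difference of the members was -0.38 with the block and -0.15 without it, within the spread between arrays. As no normal ductal array is numbered 3, the block gave the same median as leaving out PDAC replicate 3 and is not a separate check of it. The count of pathway genes called was 0 to 3 with 1 array left out: Igfbp1, Igfals and Ins2 without normal ductal replicate 1, and Igfbp1, Igfals and Igfbpl1 without replicate 2. All but Ins2 of these had 1 equal value on the 3 PDAC arrays. The count of members without overlap was 5 of 10 with all arrays and 6 to 8 with 1 array left out, while the share of all genes without overlap went from 26.4% to between 32.4% and 54.9%. The 8 came without normal ductal replicate 2, where 52.7% of all genes did not overlap. Marker list means under other scalings were added after seeing the data.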
